A study of Mus musculus with 60 samples.

Results

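Phlda3 and 8 other genes of the p53 pathway (Trp53, Mdm2, Cdkn1a, Ccng1, Trp53inp1, Sesn2, Pmaip1 and Bbc3) were examined, 9 of the 27238 genes in the expression table. Phlda3 was chosen because its level was much higher in nuclear transfer (NT) blastulas than in in vivo blastulas, and the others were chosen as known p53 pathway genes. The Phlda3 difference at the blastula stage is therefore given as a description, without a test. Each library held the RNA of 1 whole mouse embryo or a sample of donor cells, sequenced after amplification, and there were 3 libraries in each of 20 groups (60 libraries). In vivo embryos came from superovulated C57BL/6 females mated with DBA2 males. NTC embryos were made by injecting the nucleus of a cumulus cell (CC), a somatic cell that surrounds the oocyte, into an enucleated oocyte, and NTM embryos received the nucleus of a mouse embryonic fibroblast (MEF) that had been starved of serum. Recipient oocytes and donor cells were BDF1, the F1 hybrid of the same cross, so that the 3 embryo types shared a nuclear genetic background. The oocytes themselves were C57BL/6 for in vivo embryos and BDF1 for NT embryos. Each type was collected at 6 stages, from the 1-cell (pronuclear) embryo over the 2-cell, 4-cell and 8-cell embryo to the morula and the blastula. Both NT groups were activated with strontium chloride in the presence of cytochalasin B and the histone deacetylase inhibitor Scriptaid and were then cultured in vitro, whereas in vivo embryos developed in the mother. The effects of nuclear transfer, of the oocyte strain, of the activation drugs and of culture on the values below cannot be told apart. Sequenced embryos were selected by morphology.

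p53, encoded by Trp53, is a transcription factor that is held at a low level by the ubiquitin ligase Mdm2 and accumulates after DNA damage and other stress. It then activates genes that stop the cell cycle, repair DNA or start apoptosis, and also Mdm2, which closes a feedback loop. Its amount and activity are mainly set at the protein level, which RNA does not measure. Cdkn1a (p21) inhibits cyclin-dependent kinases and Ccng1 (cyclin G1) is a p53 target that acts back on the Mdm2 loop. Phlda3 is a small pleckstrin homology protein that competes with AKT for membrane phosphoinositides and so represses the AKT kinase. Trp53inp1 is a stress-induced nuclear protein of the same pathway, Sesn2 (sestrin 2) restrains mTORC1 signalling under stress, and Pmaip1 (Noxa) and Bbc3 (Puma) are pro-apoptotic members of the BCL2 family.

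In the GENCODE M21 annotation (GRCm38), Phlda3 lies at chr1:135766119-135769136 on the plus strand, and its RPKM counts reads over its 1559 nt of exons. Trp53 lies at chr11:69580359-69591873, Mdm2 at chr10:117688875-117710758, Cdkn1a at chr17:29090976-29100727 and Ccng1 at chr11:40748552-40755311. Trp53inp1 and Sesn2 are on chromosome 4 and Bbc3 on chromosome 7. Of the 9 genes, Cdkn1a alone shares exon bases with another annotated gene, 273 nt of an unnamed transcript on the opposite strand, whose reads could not be told apart without strand. The promoters are shown because p53 binds DNA through decamers of a loose consensus, usually 2 of them close together. The 250 bases before the RefSeq start (GRCm38.p6) were searched on both strands for the p53 decamer consensus, which reads the same on both. Of all promoters in the RefSeq table, 7.13% held at least 1 such decamer and 0.0639% held a pair no more than 13 bases apart. Decamers are in capitals in the following promoters, each written 5′ to 3′ and ending at the base before the start, where those of Cdkn1a begin 73 and 51 bases before the start and those of the other 3 genes stand singly.
Cdkn1a (chr17:29090729-29090978, plus strand): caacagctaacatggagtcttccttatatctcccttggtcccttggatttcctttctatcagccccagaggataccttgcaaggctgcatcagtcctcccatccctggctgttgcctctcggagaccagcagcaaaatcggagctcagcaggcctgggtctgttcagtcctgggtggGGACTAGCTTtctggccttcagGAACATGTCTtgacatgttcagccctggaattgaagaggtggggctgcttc
Mdm2 (chr10:117710759-117711008, minus strand): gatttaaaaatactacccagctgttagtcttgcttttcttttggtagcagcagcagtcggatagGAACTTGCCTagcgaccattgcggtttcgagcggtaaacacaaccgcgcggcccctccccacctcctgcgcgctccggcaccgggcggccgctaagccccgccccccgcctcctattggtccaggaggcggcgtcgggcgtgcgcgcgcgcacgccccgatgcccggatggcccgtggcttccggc
Ccng1 (chr11:40755287-40755536, minus strand): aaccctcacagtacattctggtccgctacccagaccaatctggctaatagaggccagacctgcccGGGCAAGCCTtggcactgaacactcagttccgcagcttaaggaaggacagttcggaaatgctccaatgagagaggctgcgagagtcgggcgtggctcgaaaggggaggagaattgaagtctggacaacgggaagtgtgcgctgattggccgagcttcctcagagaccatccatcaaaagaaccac
Trp53 (chr11:69580109-69580358, plus strand): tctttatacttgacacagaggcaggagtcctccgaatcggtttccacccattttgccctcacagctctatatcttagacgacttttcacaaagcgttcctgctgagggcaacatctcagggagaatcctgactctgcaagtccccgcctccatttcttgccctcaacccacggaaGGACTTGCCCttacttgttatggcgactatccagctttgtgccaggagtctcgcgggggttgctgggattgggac
The windows of Phlda3, Sesn2 and Bbc3 held no match, nor did that of a second Cdkn1a start (chr17:29093519-29093768, plus strand). Pmaip1 was not searched and the table has no entry for Trp53inp1. A match is a description of letters and not a binding site, and p53 sites often lie in introns outside such windows.

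The libraries held 5294167 to 47830132 reads on genes (median 15451428), and the 54 embryo libraries had a median of 14718210. Above 0 RPKM were 7730 to 7808 genes in the 3 in vivo blastulas and 11498 to 13568 in the 6 NT blastulas. Among 4-cell embryos the mitochondrial share of reads was 29.6% to 40.4% in NT and 5.68% to 8.87% in in vivo libraries. The MEF libraries held all 10 fibroblast markers at 1 RPKM or more and the CC libraries 5 to 9 of 10 cumulus markers. MEF libraries also held 4 to 5 of these cumulus markers, with sums of 517 to 1231 RPKM against 643 to 1305 RPKM in CCs, so that the cumulus list separates the donor cells poorly. In vivo and NT blastulas held at least 8 of 10 blastocyst markers at that level.

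Phlda3 was silent at the 1-cell stage in every embryo type and was far higher in embryos made by NT than in those grown in vivo at the 4-cell and 8-cell stages. All 9 libraries of 1-cell embryos and all 3 in vivo 2-cell libraries held 0 reads of Phlda3, which allows at most 0.190 RPKM at a limit of 3 reads, counting error only. NTM 2-cell embryos gave 0.0327, 0.0466 and 0 RPKM, or 1, 1 and 0 reads, and NTC 2-cell embryos gave 17.8, 2.25 and 0.242 RPKM. Thus 3 of 3 NTC and 2 of 3 NTM libraries of 2-cell embryos held a read, the NTM ones at the level of single reads.

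At the 4-cell stage Phlda3 stood at 132, 478 and 467 RPKM in NTC embryos and at 170, 261 and 378 RPKM in NTM embryos. In vivo 4-cell embryos had 1.41, 19.1 and 0.0393 RPKM. The lowest NT library was above the highest in vivo library, and the in vivo libraries differed among themselves more than the NT libraries did. The pooled NT groups were higher by 6.26 ± 0.81 (SE) on the log2 scale of RPKM + 1 (limma, adjusted p = 0.000254). This scale understates differences of genes near 0. In whole embryos, fewer cells of a type and less RNA per cell cannot be told apart.

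In 8-cell embryos the levels were 125, 202 and 238 RPKM (NTC), 133, 120 and 57.4 RPKM (NTM) and 0.224, 24.6 and 6.63 RPKM (in vivo). Again all 6 NT libraries exceeded all 3 in vivo libraries, and the pooled log2 difference was 4.43 ± 0.71 (SE, adjusted p = 0.00773). Without the filter on low values this adjusted p was 0.0726. In vivo morulae gave 6.26, 50.5 and 147 RPKM, against 86.7, 193 and 49.3 RPKM in NTC and 89.0, 58.6 and 94.2 RPKM in NTM morulae. The ranges overlapped, and the log2 difference of 1.19 ± 0.73 (SE) did not pass the test (adjusted p = 0.494). Without in vivo morula replicate 1, the lowest of the 3, it was -0.0047 (adjusted p = 0.997).

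In vivo blastulas had 0.286, 2.47 and 0.335 RPKM of Phlda3, which rest on 7, 33 and 6 reads. NTC blastulas had 144, 122 and 66.2 RPKM and NTM blastulas 122, 198 and 222 RPKM. These are the values for which Phlda3 was chosen, and the pooled log2 difference of 6.24 ± 0.53 (SE) is a description. In vivo morulae and blastulas did not overlap, since the lowest morula stood at 6.26 RPKM. As the in vivo blastula values entered the choice of the gene, this fall is a description as well.

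**Figure D1:**
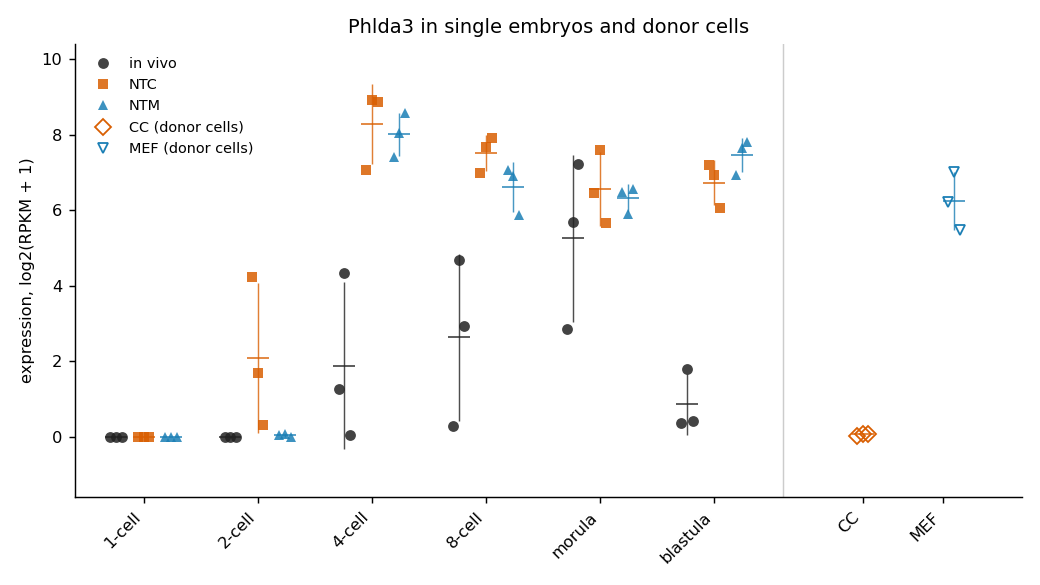
Phlda3 expression as log2(RPKM + 1) (vertical axis) in each library of in vivo, NTC and NTM embryos at the 6 stages and in CC and MEF donor cells (horizontal axis); dashes are means and vertical lines SD, n = 3. All 1-cell libraries lie at 0, and the NT libraries of the 4-cell and 8-cell stages lie between 57.4 and 478 RPKM, above every in vivo library of those stages.

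Over the 20 groups, mean log2(RPKM + 1) of Phlda3 was highest in NTC 4-cell embryos (8.28 ± 1.06, SD, n = 3), followed by NTM 4-cell (8.00 ± 0.57) and NTC 8-cell embryos (7.52 ± 0.48). The 8 groups of NT embryos from the 4-cell stage on took ranks 1 to 8. MEFs came ninth with 73.3, 129 and 43.8 RPKM (6.24 ± 0.77), followed by in vivo morulae (5.25 ± 2.21), the highest in vivo group. Next were in vivo 8-cell (2.63 ± 2.21), NTC 2-cell (2.08 ± 1.99), in vivo 4-cell (1.88) and in vivo blastula (0.86 ± 0.81). CCs held 0.0172, 0.0609 and 0.0610 RPKM (1, 3 and 3 reads). Each group overlapped the next one in this order except in vivo blastulas, which were above CCs without overlap. The donor cells thus lay far apart. Between the NT embryos made from them, the Phlda3 difference at the 4-cell stage did not pass (log2 difference of NTM from NTC -0.27 ± 0.50, SE, limma, adjusted p = 0.902). That comparison called 0% of 10233 genes, so the lack of a call does not show equal levels. At the 2-cell stage the lowest NTC library (0.242 RPKM) lay above the highest NTM library (0.0466 RPKM).

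Next, the other members were compared at the 4-cell stage, the first at which members differed between pooled NT and in vivo embryos. Pooled over NTC and NTM, 4 of 9 members were higher than in vivo (Phlda3, Ccng1, Pmaip1 and Sesn2) and 1 was lower (Trp53), where 5% of 11264 genes were higher and 21.6% lower. A gene was called at an adjusted p under 0.05 and a log2 difference of at least 1 in size. The median difference was 1.34 over the members and -0.413 over all genes tested. Ranges did not overlap for 4 members, all with NT higher (Phlda3, Ccng1, Pmaip1 and Sesn2), against 5.17% of genes with every NT library higher.

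Ccng1 stood at 32.3, 106 and 94.8 RPKM in NTC, 370, 121 and 130 RPKM in NTM and 8.08, 11.9 and 2.16 RPKM in in vivo 4-cell embryos. All 6 NT libraries were higher, by 3.97 ± 0.58 (log2, SE, adjusted p = 0.000558). Pmaip1 was nearly absent in vivo, with 0.115, 0.0761 and 0 RPKM (4, 3 and 0 reads), and passed the filter on low values only through the NT libraries. NTC embryos had 1.70, 28.6 and 30.4 RPKM of it and NTM embryos 50.2, 51.3 and 122 RPKM. The log2 difference of Pmaip1 was 4.85 ± 0.75 (SE, adjusted p = 0.000798), and with a pseudocount of 0.1 it was 7.50, since its size depends on the pseudocount where the in vivo level is near 0. Sesn2 was expressed in all, at 48.5, 59.0 and 49.6 RPKM (NTC), 24.1, 68.4 and 65.5 RPKM (NTM) and 16.5, 19.7 and 21.5 RPKM (in vivo). Its log2 difference of 1.34 ± 0.39 (SE, adjusted p = 0.0262) was the smallest that passed, and leaving out NTC 4-cell replicate 2 or any of the 3 in vivo libraries raised the adjusted p to 0.0522 to 0.104, as did one fit over all 20 groups (0.0883).

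Trp53 itself went the other way. Its transcript stood at 32.4, 88.1 and 47.5 RPKM in vivo, at 14.4, 18.4 and 14.0 RPKM in NTC and at 13.6, 41.5 and 18.6 RPKM in NTM 4-cell embryos. Only NTM replicate 2 reached into the in vivo range, and the log2 difference was -1.43 ± 0.45 (SE, adjusted p = 0.0375). This call was lost without 7 of the 9 libraries, each of the 3 NTC libraries, NTM replicates 1 and 3 and in vivo replicates 2 and 3 (adjusted p 0.0505 to 0.197), with median-ratio scaling, where the difference was -0.87 (0.228), without the filter on low values (0.0572) and with one fit over all 20 groups (0.0593). Cdkn1a was at 49.0, 45.6 and 48.7 RPKM in vivo, 2.92, 22.0 and 38.6 RPKM in NTC and 43.3, 59.5 and 44.4 RPKM in NTM embryos. Its difference of -0.82 ± 0.61 (log2, SE, adjusted p = 0.365) did not pass. Mdm2 (0.46 ± 0.40), Trp53inp1 (0.88 ± 0.39) and Bbc3 (2.45 ± 1.01) did not pass either, with adjusted p of 0.0975 to 0.449. Bbc3 varied the most of the 9 within each NT group, from 0.731 to 37.9 RPKM in NTC, from 2.09 to 40.2 RPKM in NTM and from 0.0379 to 2.24 RPKM in in vivo embryos.

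NTC 4-cell replicate 1 held the lowest value of the 6 NT libraries for 6 of the 9 members (Phlda3, Cdkn1a, Ccng1, Trp53inp1, Pmaip1 and Bbc3). Without it, 5 members were called, Trp53 not among them. NT 4-cell embryos also carried the higher mitochondrial share given above and fewer genes above 0 RPKM (8997 to 11929, against 13576 to 13932 in vivo), and the part of these in the results was not tested. Cumulus markers summed to 5.36 to 56.0 RPKM in NT and 14.2 to 19.1 RPKM in in vivo 4-cell embryos, with Amhr2 and Foxl2 reaching 1 RPKM in NT and 6 of 10 at 0 in all 6 NT libraries. Fibroblast markers summed to 0 to 22.3 RPKM in NT and 0.356 to 0.400 RPKM in vivo, with Col1a1, Col1a2 and Dcn reaching 1 RPKM in NT and 5 of 10 at 0 in all 6. Oocyte markers summed to 91.3 to 573 RPKM in NT and 92.7 to 121 RPKM in vivo, highest in NTM replicate 2. That library also had the fewest genes above 0 RPKM (8997) and the highest NT values of Trp53, Cdkn1a, Sesn2 and Bbc3. With median-ratio scaling, which moved the median gene from -0.413 to -0.0503, 5 members were higher and 0 lower, and the share of higher genes among all called went from 18.8% to 34.5%.

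At the 8-cell stage 5 of 9 members were higher in NT embryos and 0 lower, against 2.54% of 9581 genes higher. These were Phlda3, Ccng1, Pmaip1, Cdkn1a and Sesn2, and the median difference was 2.34 over the members and 0.424 over all genes. Cdkn1a, which had not differed at the 4-cell stage, was at 20.2, 27.2 and 24.7 RPKM in NTC, 10.6, 18.6 and 14.1 RPKM in NTM and 1.13, 0.977 and 4.81 RPKM in in vivo embryos. Its groups did not overlap and differed by 2.74 ± 0.46 (log2, SE, adjusted p = 0.00896). Ccng1 stood at 85.7, 104 and 130 RPKM (NTC), 140, 239 and 56.2 RPKM (NTM) and 7.96, 23.9 and 2.99 RPKM (in vivo), a difference of 3.58 ± 0.55 (SE, adjusted p = 0.00689). Pmaip1 and Sesn2 differed by 3.46 ± 0.61 and 2.34 ± 0.47 (log2, SE), with adjusted p of 0.0106 and 0.0173. For Sesn2 this rose to 0.0638 without in vivo replicate 1 and to 0.0509 without in vivo replicate 2. Trp53inp1 also showed no overlap (9.59 to 42.1 RPKM in NT, 3.04 to 5.22 RPKM in vivo), but its adjusted p was 0.0800.

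In total 6 of 9 members had every NT 8-cell library above every in vivo one, where 8.54% of genes did. Without the filter on low values, Cdkn1a alone was still called, as the adjusted p of the other 4 rose to 0.0641 to 0.0726. NTM 8-cell replicate 3, the shallowest of these 9 libraries with 5758141 reads, held the lowest NT value for 5 members, and without it 5 members were still called.

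In morulae fewer members passed. Of 9 members, 2 were higher (Pmaip1 and Cdkn1a) and 0 lower, where 0.412% of 9231 genes were higher. Pmaip1 had 12.4, 32.8 and 14.9 RPKM in NTC, 42.4, 15.0 and 73.3 RPKM in NTM and 5.29, 0.335 and 0.415 RPKM in in vivo morulae (log2 difference 3.55 ± 0.61, SE, adjusted p = 0.0300). Cdkn1a had 31.9, 43.1 and 20.8 RPKM, 23.5, 13.9 and 22.5 RPKM, and 4.08, 1.63 and 6.71 RPKM in the same order (2.44 ± 0.44, SE, adjusted p = 0.0304). Neither passed without NTC replicate 2 or 3, NTM replicate 1 or 3, or in vivo replicate 2 (adjusted p 0.0549 to 0.129). Pmaip1 was also lost without in vivo replicate 3 (0.0738), Cdkn1a without NTC replicate 1 (0.0799) or NTM replicate 2 (0.0548), and both without the filter on low values (0.168 and 0.146). Ccng1, Mdm2 and Trp53inp1 were higher in all 6 NT morulae but did not pass, with adjusted p of 0.0661, 0.0691 and 0.157. With Pmaip1 and Cdkn1a, that makes 5 members without overlap, against 3.3% of genes.

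In blastulas 7 of the 8 members tested were higher in NT embryos and 0 lower, against 16.6% of 9788 genes higher. The median difference was 3.23 over these 8 and 0.788 over all genes. Pmaip1, Trp53inp1 and Bbc3 lay under 0.5 RPKM in every in vivo blastula. They passed the filter (a mean of at least 0.5 RPKM) only through the NT libraries, so their place among the tested genes rests on the group in which they were high. With Phlda3, which was chosen for its blastula difference, 8 of 9 members had every NT library above every in vivo library, where 24% of genes did. Ccng1 was the most abundant, at 391, 594 and 325 RPKM in NTC and 379, 527 and 458 RPKM in NTM blastulas. In vivo blastulas had 13.9, 29.9 and 1.26 RPKM of it, and the difference was 5.43 ± 0.69 (log2, SE, adjusted p = 0.00197). RPKM is per exon length, so this order of levels holds across genes as far as the exon models fit.

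Mdm2 stood at 15.2, 10.3 and 26.5 RPKM (NTC), 18.2, 32.4 and 14.7 RPKM (NTM) and 1.31, 0.853 and 0.223 RPKM (in vivo). It was higher by 3.47 ± 0.53 (log2, SE, adjusted p = 0.00345). Cdkn1a gave 14.8, 23.6 and 35.4 RPKM, 11.3, 25.3 and 12.7 RPKM, and 1.23, 2.16 and 0 RPKM in that order, a difference of 3.38 ± 0.57 (SE, adjusted p = 0.00475). Trp53inp1 differed by 3.09 ± 0.50 (SE, adjusted p = 0.00384), with 5.03 to 13.2 RPKM in NT and 0.0295, 0.397 and 0 RPKM in in vivo blastulas. The inhibitor of p53 and the cell cycle genes were therefore all higher, at a stage where 89.6% of all genes called were higher in NT.

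Of the apoptosis genes, Pmaip1 had 11.6, 37.7 and 34.8 RPKM in NTC, 11.2, 30.4 and 28.4 RPKM in NTM and 0, 0.353 and 0.362 RPKM in in vivo blastulas (difference 4.30 ± 0.58, SE, adjusted p = 0.00225). Bbc3 had 2.38, 2.80 and 5.07 RPKM, 9.43, 5.16 and 3.32 RPKM, and 0, 0.0582 and 0 RPKM, and rests on a single read in vivo. Its difference was 2.37 ± 0.47 (SE, adjusted p = 0.00799) and, with a pseudocount of 0.1, 5.21. Sesn2 differed by 2.84 ± 0.73 (SE, adjusted p = 0.0237), with in vivo replicate 3 at 6.89 RPKM close to the lowest NT library at 8.28 RPKM. That call was lost without NTC replicate 2, NTM replicate 1 or 2 or in vivo replicate 1 or 2 (adjusted p 0.0516 to 0.0637) and without the filter on low values (0.0592). Trp53 itself did not pass, at 6.12, 5.17 and 3.15 RPKM in NTC, 6.14, 3.55 and 2.25 RPKM in NTM and 0.126, 4.02 and 0.409 RPKM in vivo (1.37 ± 0.59, SE, adjusted p = 0.121). Without in vivo replicate 2 it was 2.04 and passed (adjusted p = 0.0291).

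The blastula differences moved together with the lower number of genes above 0 in in vivo blastulas, given above, and that part was not tested. With median-ratio scaling the median gene differed by 0.486 rather than 0.788 and 7 members were still higher, while the share of higher genes among all called went from 89.6% to 70.3%. Of the cumulus markers, Amhr2 alone reached 1 RPKM in an NT blastula, 7 of 10 were at 0 in all 6, and the sum was 2.45 to 6.72 RPKM (in vivo 0 to 0.0318 RPKM). Of the fibroblast markers, Thy1 and Twist1 reached 1 RPKM in an NT blastula, 5 of 10 (Col1a1, Col3a1, Dcn, Lum and Prrx1) were at 0 in all 6, and the sum was 0 to 4.67 RPKM (in vivo 0 RPKM for all 10). Oocyte markers summed to 1.83 to 19.3 RPKM in NT and 0 to 0.117 RPKM in in vivo blastulas.

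**Figure D2:**
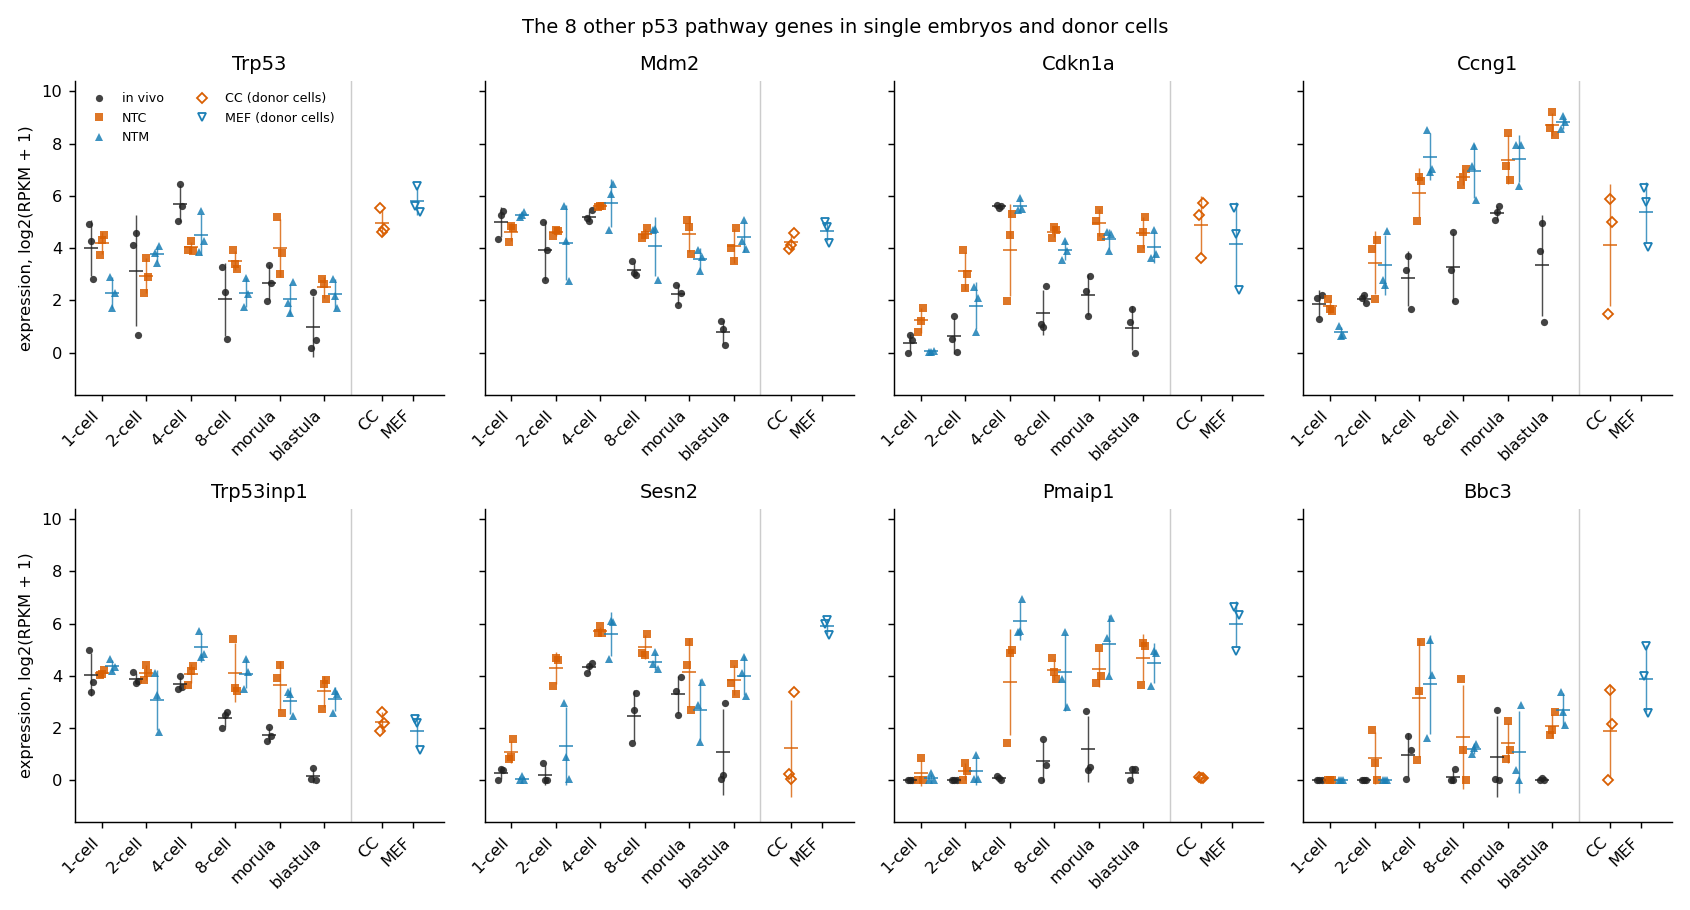
Expression of the other 8 genes as log2(RPKM + 1) (vertical axis) in each library by stage and donor cell (horizontal axis); dashes are means and vertical lines SD, n = 3. From the 8-cell stage on, every NT library lies above every in vivo library for Cdkn1a, Ccng1 and Trp53inp1, while the ranges of Trp53 overlap at all 6 stages.

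**Figure D3:**
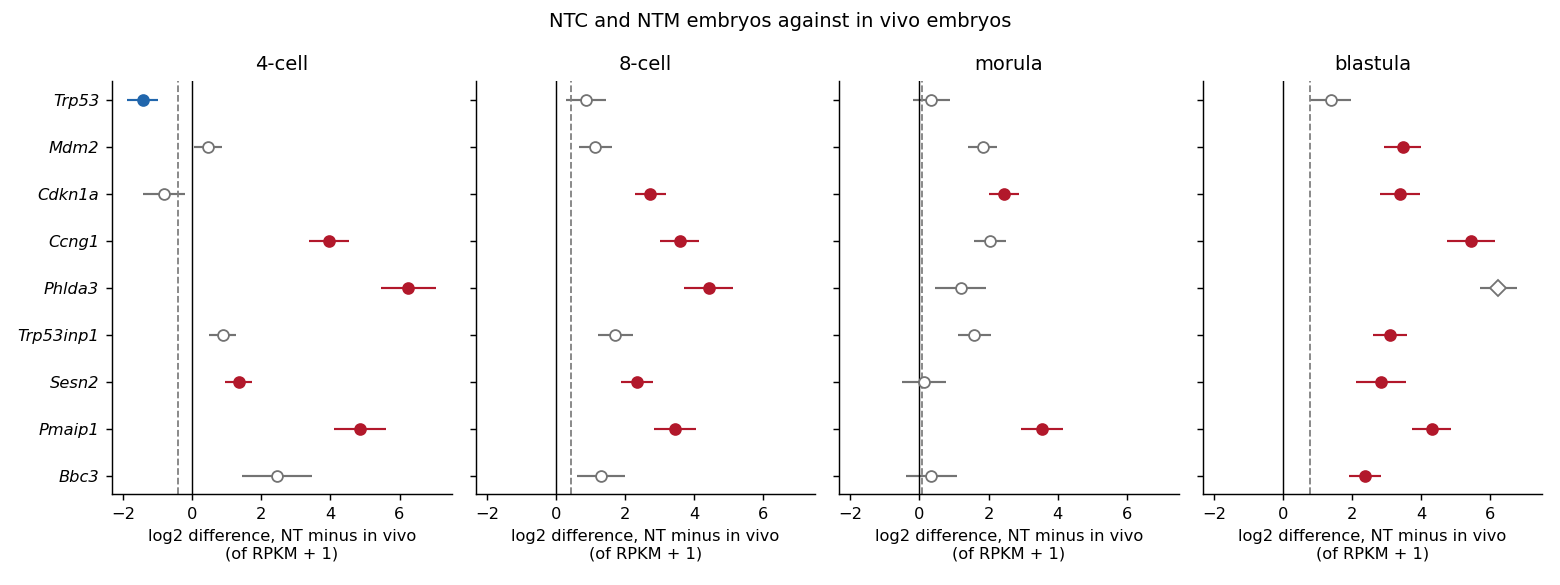
Log2 difference of pooled NT from in vivo embryos (horizontal axis, RPKM + 1) for the 9 genes at 4 stages, with SE bars; filled points passed the test (red higher, blue lower), open circles did not, the diamond is Phlda3 in blastulas, which was not tested, and the dashed line is the median of all genes. Of the tested members, 4, 5, 2 and 7 were higher at the 4-cell, 8-cell, morula and blastula stage.

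At the 1-cell stage of pooled NT against in vivo, 0 of 5 tested members differed, and 0 had an unadjusted p under 0.05 (3.82% of genes were called in limma). At the 2-cell stage 0 of 7 differed, with 2 at an unadjusted p under 0.05 (0.338% of genes called, 1330 of 11824 at an unadjusted p under 0.05). These 2 were Cdkn1a and Sesn2. Sesn2 stood at 11.3, 24.6 and 23.6 RPKM in NTC, 6.87, 0.878 and 0.0465 RPKM in NTM and 0.572, 0 and 0 RPKM in in vivo 2-cell embryos. All 3 NTC libraries were above all NTM and in vivo libraries. In vivo Sesn2 averaged under 0.5 RPKM at this stage, so it passed the filter on low values only through the NT libraries. NTC against in vivo gave 4.09 ± 0.67 (log2, SE, adjusted p = 0.0490) for Sesn2, where 0.135% of genes were higher. That call was lost with a pseudocount of 0.1 (0.0748), without the filter on low values (0.235) and without any of 5 of the 6 libraries, all but in vivo replicate 3 (adjusted p 0.0905 to 0.370).

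The NT types were also compared with the in vivo embryos one by one, using the same in vivo libraries for both. Over the 6 stages, 16 of 49 member tests were called for NTC (15 higher, 1 lower) and 5 of 45 for NTM (all higher). At the 1-cell stage and in morulae no member passed for either type in limma, where 1.16% and 0.0321% (NTC) and 1.28% and 0.168% (NTM) of genes were called, and none passed in NTM 2-cell embryos (0.141%). Phlda3 was higher by 6.39 ± 1.00 in NTC and 6.12 ± 1.00 in NTM 4-cell embryos (log2, SE, adjusted p = 0.00184 and 0.00534), where 7.4% and 3.33% of genes were higher. NTC 4-cell embryos also had less Trp53 (-1.67 ± 0.40, adjusted p = 0.0147, with 20.4% of genes lower), a call lost without in vivo replicate 2 or 3 (0.0577 and 0.0570). At the 8-cell stage Phlda3 differed by 4.88 ± 0.88 in NTC (adjusted p = 0.0296, with 0.882% of genes higher) and by 3.98 ± 0.90 in NTM embryos (adjusted p = 0.0519), where Ccng1 alone passed (3.70 ± 0.69, adjusted p = 0.0272, with 1.2% of genes higher). The NTC call of Phlda3 was lost without any library but in vivo replicate 2 (adjusted p 0.0526 to 0.130), and the NTM call of Ccng1 without any NTM library or in vivo replicate 1 (0.0566 to 0.158). In blastulas 6 of 8 tested members were called for NTC, where 8.81% of genes were higher, and 1 of 8 (Pmaip1) for NTM, where 0.565% were. Without NTC blastula replicate 2 the NTC count was 0, and without NTM blastula replicate 3 the NTM count was 5. The NTM call of Pmaip1 was lost without any library but NTM replicate 3 (adjusted p 0.0546 to 0.102). The unequal counts are not a test of a difference between donor types. In fact 0 of 9 members differed between NTM and NTC blastulas, with 0 at an unadjusted p under 0.05 (limma, 0% of 10187 genes called).

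Between the NT types directly, 2 of 50 member tests passed, both at the 1-cell stage, where 14.2% of genes were lower in NTM. Trp53 had 12.4, 19.0 and 22.0 RPKM in NTC and 6.44, 2.27 and 3.85 RPKM in NTM 1-cell embryos, without overlap (log2 difference -1.90 ± 0.37, SE, adjusted p = 0.00797). Cdkn1a had 0.711, 1.33 and 2.28 RPKM in NTC and 1 to 2 reads (0.0304 to 0.0545 RPKM) in NTM 1-cell embryos (-1.18 ± 0.37, SE, adjusted p = 0.0479). The Cdkn1a call was lost without any NTM library or NTC replicate 2 (adjusted p 0.0808 to 0.105), without the filter (0.0516) and with median-ratio scaling (0.0534), and with one fit over all 20 groups neither passed (0.0682 for Trp53, 0.270 for Cdkn1a). From the 2-cell stage to the blastula no member passed, and the number with an unadjusted p under 0.05 was 1, 3, 1, 1 and 0 of 8 or 9 tested (limma). At these stages 0% to 0.0507% of all genes were called, and 315 to 1534 genes had an unadjusted p under 0.05.

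Donor cells were compared next. MEFs had 97.7, 30.3 and 80.3 RPKM of Pmaip1 and 62.0, 69.7 and 46.2 RPKM of Sesn2, whereas CCs had 0.101, 0.0717 and 0.0599 RPKM and 0.200, 0.0364 and 9.35 RPKM. With Phlda3, 3 of 9 members were higher in MEFs and 0 lower (3.99% of 11978 genes higher). Of these, Phlda3 and Pmaip1 were near 0 in every CC library and passed the filter on low values only through the MEF libraries. The log2 differences were 6.18 ± 0.63 for Phlda3, 5.87 ± 0.66 for Pmaip1 and 4.67 ± 0.90 for Sesn2 (SE, adjusted p = 0.000692, 0.00124 and 0.0175), and that of Sesn2 was lost without any single MEF library (adjusted p 0.0919 to 0.113), without the filter on low values (0.0965) and with a pseudocount of 0.1 (0.0525). At the 1-cell stage NTM embryos held 0, 0.205 and 0 RPKM of Pmaip1, 0, 0.117 and 0 RPKM of Sesn2 and 0 reads of Phlda3. The transcripts in which MEFs exceeded CCs were therefore at or near 0 in 1-cell NTM embryos.

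The transitions between stages showed when the members rose. At the 2-cell to 4-cell step 6 of 9 members rose in NTM embryos (Phlda3, Pmaip1, Sesn2, Ccng1, Cdkn1a and Bbc3) and 4 of 9 in NTC embryos (Phlda3, Pmaip1, Ccng1 and Sesn2), where 12.1% and 16.4% of genes rose. Phlda3 rose by 7.97 ± 0.59 in NTM and 6.20 ± 0.95 in NTC embryos (log2, SE, adjusted p = 0.000218 and 0.00154). In vivo 2 of 8 members rose at this step, Cdkn1a by 4.96 ± 0.43 and Sesn2 by 4.11 ± 0.37 (adjusted p = 0.000121 and 0.000129), where 31.4% of genes rose. Phlda3 and Bbc3 in NTM and Sesn2 in in vivo embryos averaged under 0.5 RPKM at the 2-cell stage. They passed the filter on low values only through the 4-cell libraries, so they could be called only as rising. Pmaip1 was also low before this step, at no more than 0.989 RPKM in any NT 2-cell library. In vivo Cdkn1a went from 0.435, 1.62 and 0.0272 RPKM to 49.0, 45.6 and 48.7 RPKM and then to 1.13, 0.977 and 4.81 RPKM at the 8-cell stage. The 4-cell stage thus held a peak of Cdkn1a RPKM in vivo in all 3 libraries. The mitochondrial share of reads also changed, from 5.68% to 8.87% in in vivo 4-cell libraries to at least 32.08% in in vivo 8-cell libraries. Genes above 0 RPKM numbered 13576 to 13932 in the former and 9913 to 10304 in the latter. The part of this shift in the peak and in the falls below was not tested. Cdkn1a was called at both steps in all 11 alternative settings.

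At the 4-cell to 8-cell step 5 of 8 members fell in vivo, where 39.3% of genes fell. Cdkn1a fell by 4.07 ± 0.48, Trp53 by 3.67 ± 0.72, Mdm2 by 2.04 ± 0.33, Sesn2 by 1.85 ± 0.52 and Trp53inp1 by 1.32 ± 0.37 (log2, SE, adjusted p = 0.000473, 0.00491, 0.00198, 0.0223 and 0.0226). The median gene fell by 1.05 at this step, while scaling by median ratios ended the calls of Mdm2, Sesn2 and Trp53inp1 (adjusted p 0.123, 0.511 and 0.910). Without single in vivo 4-cell libraries the calls of Sesn2 (replicates 1, 2 and 3) and Trp53inp1 (replicates 2 and 3) were lost as well (adjusted p 0.0554 to 0.0801). In NTC and NTM embryos no member passed at this step (limma, 0.0564% and 0.363% of genes called), with 1 and 6 of 9 at an unadjusted p under 0.05. Among all genes these were 1139 of 10634 and 1092 of 9632. In NTM embryos all 9 members had lower means at the 8-cell stage, with a median of -1.67, where the median over all genes was -0.234. In vivo the median was -1.58 over the 8 members tested, where that over all genes was -1.05.

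At the 1-cell to 2-cell step Cdkn1a and Sesn2 rose in NTC (4.53% of genes rose) and Ccng1 rose in NTM embryos (2.72%), by 1.90 ± 0.50, 3.21 ± 0.44 and 2.57 ± 0.68 (log2, SE, adjusted p = 0.0381, 0.00285 and 0.0497), and no member passed in vivo (0%). No member passed from the 8-cell stage to the morula (0.0116% of genes called in vivo, 0% in both NT types). From the morula to the blastula none of the other 8 members passed (0.801% in vivo, 7.16% in NTC, 4.22% in NTM), and Phlda3 was not tested. Single libraries decided some of the calls in NT embryos. At the 2-cell to 4-cell step in NTC embryos, the call of Pmaip1 was lost without any library but 4-cell replicate 1 (adjusted p up to 0.0817), that of Ccng1 without 4-cell replicate 2 or 3 or 2-cell replicate 2 (up to 0.0619) and that of Sesn2 without any 4-cell library or 2-cell replicate 1 (up to 0.0725). In NTM embryos the call of Bbc3 was lost without any library but 4-cell replicate 1 (up to 0.0822). At the 1-cell to 2-cell step the call of Cdkn1a was lost without any library but NTC 2-cell replicate 2 (up to 0.149) and that of Ccng1 without any but NTM 2-cell replicate 1 (up to 0.192).

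Whether an NT type and in vivo embryos changed unequally at a step was tested as an interaction. The NTC change of Cdkn1a minus its in vivo change was -4.16 ± 1.04 (log2, SE, adjusted p = 0.0178) at the 2-cell to 4-cell step and 4.77 ± 0.99 (adjusted p = 0.00484) at the next. Its mean log2(RPKM + 1) in NTC embryos went from 3.93 in 4-cell to 4.64 in 8-cell embryos, which did not pass (adjusted p = 0.709), while it fell in vivo. Among all genes 12% rose less or fell more in NTC at the first of these steps and 17% the reverse at the second. In NTM embryos the rise of Phlda3 at the 2-cell to 4-cell step exceeded that in vivo by 6.08 ± 1.19 and that of Pmaip1 by 5.66 ± 0.68 (log2, SE, adjusted p = 0.00725 and 0.000481), where 1.86% of genes were called in that direction. The in vivo 2-cell libraries were at 0 for both genes, so the size depends on the pseudocount, and with 0.1 these were 7.01 and 7.34. Cdkn1a fell less in NTM than in vivo from the 4-cell to the 8-cell stage (2.35 ± 0.65, adjusted p = 0.0236, with 16.5% of genes called in that direction). At the other steps no member passed, where 0.0256%, 0% and 0.236% (NTC) and 0.204%, 0.0335% and 0.647% (NTM) of genes were called.

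The wider pathway was described with further lists. Of 34 other p53 target genes, 31 were tested in blastulas and 10 were higher in NT and 0 lower, against 16.6% of all genes higher and 1.93% lower. The median was 1.32 over the list and 0.788 over all genes. Btg2, an anti-proliferative gene, had 7.25 to 40.3 RPKM in NT blastulas and 0 to 0.0852 RPKM in vivo (log2 difference 4.48 ± 0.60, SE, adjusted p = 0.00225). Eda2r, a receptor of the TNF family, had 6.51 to 14.8 RPKM and 0 to 0.0595 RPKM (3.66 ± 0.48, adjusted p = 0.00217). Both genes lay under 0.5 RPKM in every in vivo blastula and passed the filter on low values only through the NT libraries. Their place among the tested genes thus rests on the group in which they were high. The polo-like kinase Plk2 (2.64), the RNA-binding protein Zmat3 (1.93), the DNA polymerase Polk (1.87), the reductase Dcxr (3.90), the epoxide hydrolase Ephx1 (3.01) and Ei24 (2.48) were also higher.

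At the 4-cell stage 2 of 29 of these target genes were higher and 3 lower, where 5% and 21.6% of genes were. Eda2r (4.20 ± 0.62) and Btg2 (4.03 ± 1.09) were again the higher ones (log2, SE, adjusted p = 0.000578 and 0.0191). Sfn (14-3-3 sigma) was lower by a difference of -3.41 ± 0.47, with 520 to 639 RPKM in vivo and 23.2 to 126 RPKM in NT embryos. Rrm2b, a ribonucleotide reductase subunit, and Ei24 were lower as well (-2.80 ± 0.53 and -2.08 ± 0.35). In 8-cell embryos 6 of 30 were higher and 0 lower, where 2.54% of genes were higher, and in morulae 2 of 28 and 0, where 0.412% were higher. At the 1-cell stage 2 of 23 were higher, where 2.56% of genes were, and at the 2-cell stage 0 of 28 passed in limma, with 5 at an unadjusted p under 0.05. Among all genes at the 2-cell stage, 0.338% were called and 1330 of 11824 had an unadjusted p under 0.05.

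**Figure D4:**
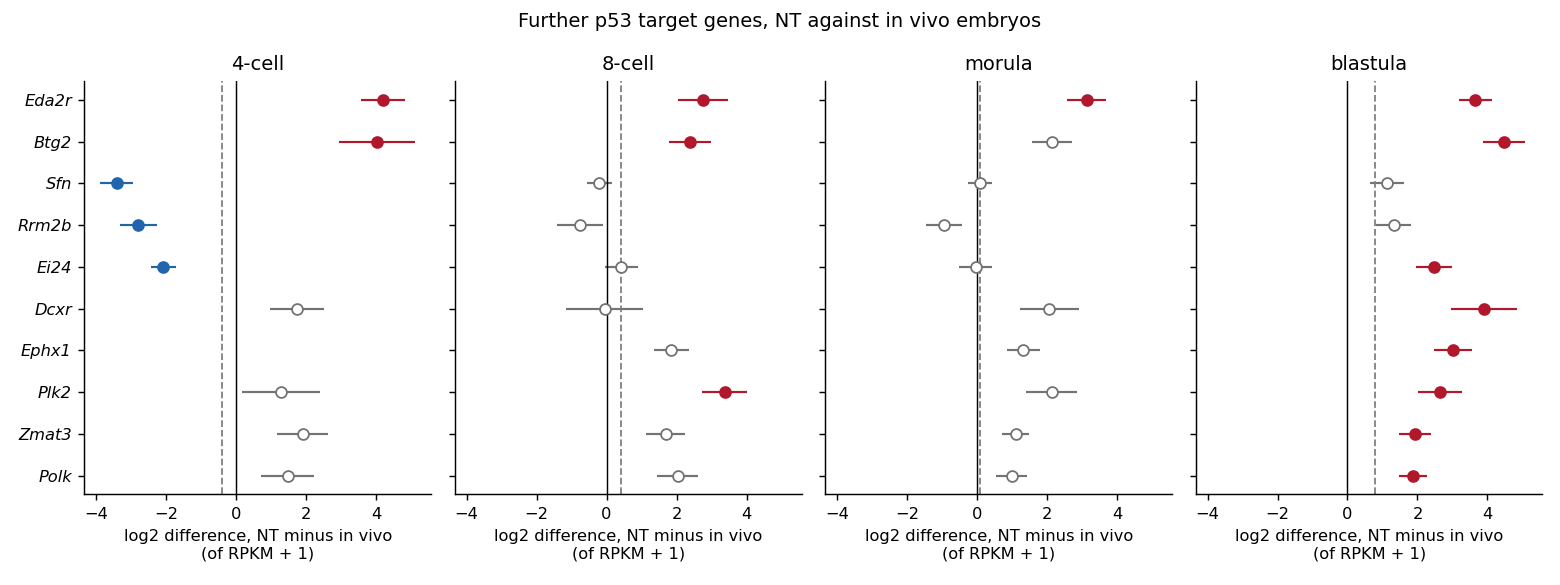
Log2 difference of pooled NT from in vivo embryos (horizontal axis, RPKM + 1) for 10 further p53 target genes at 4 stages, with SE bars, colours and dashed median line as for the 9 genes. Eda2r passed at all 4 stages and Btg2 at all but the morula, while Sfn, Rrm2b and Ei24 were lower at the 4-cell stage.

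Of 21 regulators of p53, 16 were tested at the 4-cell stage, where 1 was higher and 4 lower (5% and 21.6% of all genes). The deacetylase Sirt1 was higher (1.42 ± 0.38, SE), and the acetyltransferases Ep300 (-2.36 ± 0.46) and Kat5 (-1.79 ± 0.53) and the ribosomal proteins Rpl11 (-1.37 ± 0.27) and Rpl5 (-1.32 ± 0.41), which bind Mdm2, were lower. In blastulas the kinases Atm (1.35 ± 0.40) and Hipk2 (1.23 ± 0.38) were higher, 2 of 14 tested, where 16.6% of all genes were. Of 14 genes of the AKT pathway, on which Phlda3 acts, 13 were tested at the 4-cell stage. Gsk3b (-1.66 ± 0.43) and Tsc2 (-1.28 ± 0.36) were lower, 2 of 13, where 21.6% of all genes were lower. In blastulas Pdpk1 (2.55 ± 0.48), Mtor (1.75 ± 0.46) and Phlpp1 (1.25 ± 0.35) were higher, 3 of 13, where 16.6% of all genes were higher. Gsk3b was again lower (-1.51 ± 0.47), 1 of 13, where 1.93% of all genes were lower. The related genes Phlda1, Phlda2, Ccng2 and Trp53inp2 did not pass at any stage in limma. Over the whole list of 6 related genes, 0 of 32 tests passed and 10 had an unadjusted p under 0.05. Among all genes, between 1216 of 9231 (morula) and 4306 of 11264 (4-cell stage) had an unadjusted p under 0.05 in these comparisons.

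Finally, genes with a pattern like that of Phlda3 were sought over the 18 embryo groups, using the Pearson correlation of mean log2(RPKM + 1) among 12594 genes. The closest were Map3k3 (0.950), Malsu1 (0.949), Slc19a2 (0.948), Nme4 (0.942), 1700123O20Rik (0.942) and Mettl27 (0.938). Of the members, Ccng1 ranked 10 (0.932) and Pmaip1 ranked 16 (0.927), whereas Bbc3 ranked 88 (0.880), Sesn2 169 (0.852) and Cdkn1a 464 (0.795). Mdm2 (0.172), Trp53inp1 (0.162) and Trp53 (-0.0127) were far down the order, at ranks 5018, 5069 and 6069. The groups share stages and in vivo or NT origin. They also include the blastula values for which Phlda3 was chosen, which favours genes with the same blastula difference. These correlations therefore describe likeness of pattern and carry no p.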

How the data were processed

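Single embryos of 3 types at 6 stages and their donor cells were sequenced, 60 libraries in 20 groups of 3. The authors aligned the reads with TopHat and Bowtie2, removed redundant reads, counted reads on genes with HTSeq and deposited RPKM (reads per kilobase of exon, scaled to the reads on genes) for 27238 genes. The submitters' notes name Bowtie 0.12.2 and the build mm8, whereas exon lengths of GENCODE M21 (GRCm38) turned the RPKM of 5 members into whole reads. For Mdm2, Cdkn1a, Pmaip1 and Bbc3 the length was taken from the steps of their values (5070, 2223, 2646 and 2008 nt). All values under 2000 reads of the 9 members were then whole within 0.05 reads. Reads carry no molecular identifiers, so that limits of detection cover counting error only. The depth of 5294167 to 47830132 reads per library sets 1 read on 2000 nt at 0.0105 to 0.0944 RPKM.

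Groups were taken from the sample titles. log2(RPKM + 1) was fitted with limma 3.58.1 (lmFit, eBayes with trend) in R 4.3.3 leaving out genes whose RPKM averaged under 0.5 across the libraries in the fit, with Benjamini-Hochberg adjustment over all genes tested, and the calculation was tested on simulated data. A gene near 0 in 1 group could pass the filter through the other group alone. A gene was called at an adjusted p under 0.05 and a log2 difference of at least 1. Embryos were collected in independent experiments, and the labels do not tie a library to one, so p-values measure the spread between these libraries. Alternatives were each library left out in turn, a replicate block, a single fit of the 20 groups together, scaling by median ratios, no filter, and a pseudocount of 0.1. The members and gene lists were chosen with earlier results of these data known. All members are named, with list genes called at the 4-cell or blastula stage (at most 8 per list and stage), 4 related genes and the 6 genes most like Phlda3. The result of 1 list gene is not reported here. Promoters came from RefSeq (GRCm38.p6), matched by symbol. Python 3.11.15, numpy 2.4.6 and pandas 2.3.3 were used.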

Additional observations from a re-analysis of the deposited data

Results flagged for a closer look

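Transitions that differed between an NT type and in vivo embryos by an interaction term in limma were taken for a closer look. For NTC embryos from the 2-cell to the 4-cell stage these were Cdkn1a (-4.16, log2 change in NTC minus change in vivo) and Sesn2 (-2.68). Sesn2 was already at 11.3, 24.6 and 23.6 RPKM in NTC 2-cell embryos, against 0.572, 0 and 0 RPKM in vivo. Its adjusted p was 0.00785, and 0.0572 with one fit over all 20 groups. For the 4-cell to 8-cell step these were Trp53 (3.15) and Cdkn1a (4.77), both of which fell in vivo and did not pass the test of this step in NTC embryos. The Trp53 term had an adjusted p of 0.0225, which rose to 0.0658 without in vivo 4-cell replicate 2, the highest Trp53 value in the series (88.1 RPKM), to 0.0510 without the filter on low values and to 0.0895 with median-ratio scaling, and in vivo Trp53 ended at 8.83, 3.96 and 0.426 RPKM in 8-cell embryos.

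For NTM embryos, the rise from the 2-cell to the 4-cell stage exceeded that in vivo for Pmaip1 (5.66) and Phlda3 (6.08). From the 4-cell to the 8-cell stage Cdkn1a differed by 2.35, from 43.3, 59.5 and 44.4 RPKM to 10.6, 18.6 and 14.1 RPKM in NTM embryos. Its adjusted p of 0.0236 rose to 0.0507 to 0.0648 without NTM 8-cell replicate 2, in vivo 8-cell replicate 1 or 2 or in vivo 4-cell replicate 1 or 3, to 0.0578 with one fit over all 20 groups and to 0.220 with median-ratio scaling. NTC and NTM terms use the same in vivo libraries.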

How the results depend on the processing

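Among 47 member tests of pooled NT against in vivo embryos 19 passed. The count was again 19, though not of the same tests, with median-ratio scaling (without Trp53, with Trp53inp1 at the 4-cell stage) and with the replicate block (without Cdkn1a in morulae, with Bbc3 at the 4-cell stage), and it was 19 with a pseudocount of 0.1, 23 with one fit over all 20 groups, 11 without the filter on low values and 17 to 19 when single libraries were left out. For NTC against in vivo (16 calls) the count was 9 with median-ratio scaling, 4 without the filter and 10 to 17 without single libraries, and for NTM (5 calls) it was 9 with a pseudocount of 0.1, 3 without the filter, 17 with one fit over all 20 groups and 4 to 9 without single libraries. The count for NTC fell most without NTC blastula replicate 2, and that for NTM rose most without NTM blastula replicate 3. NTM against NTC (2 calls) gave 1 without the filter, 1 with median-ratio scaling and 1 to 2 without single libraries. The in vivo transitions (7 calls) gave 4 with median-ratio scaling and 12 with one fit, the NTM transitions (7) gave 11 and the NTM interactions (3) gave 6 with one fit, and the NTC transitions (6) gave 3 to 8 without single libraries. MEF against CC (3) gave 2 without the filter and with a pseudocount of 0.1.

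The replicate numbers of the labels were tested as a block. Of 60 pairs of groups, 0 had every correlation of same-numbered samples over 0.1 (range -0.181 to 0.124), so the numbers were not used as pairs. NTC and NTM blastulas gave 0.124, 0.0716 and 0.0705, and this rule cannot exclude a weak link between same-numbered samples. With the replicate block the NTC count was 10, the NTM count 8 and the NTM against NTC count 1.

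Signs turned for differences that had not passed or were not tested, here with the range over all leave-outs. For pooled NT against in vivo 1-cell embryos, Trp53inp1 was -0.10 with median-ratio scaling and -0.12 to 0.68 without single libraries, and Mdm2 was -0.38 to 0.15. In 2-cell embryos Trp53 was -0.99 to 0.95, Trp53inp1 -0.55 to 0.016 and Mdm2 -0.066 to 1.05. The untested Phlda3 step from morula to blastula in NTC embryos (0.16) was -0.025 with median-ratio scaling and -0.30 to 0.68 without single libraries. In morulae Phlda3 was -0.0047 to 2.17, Sesn2 -0.26 to 0.49 and Bbc3 -0.11 to 1.24. The cause was not tested. In 3 libraries a group, differences of low genes such as Bbc3 rest on few reads.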

Other observations

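Within the NT embryos, members did not keep 1 order of levels across stages. Ccng1 rose from 32.3 to 370 RPKM at the 4-cell stage to 325 to 594 RPKM in blastulas, while Phlda3 went from 132 to 478 RPKM to 66.2 to 222 RPKM between the same stages. Mdm2 was abundant before the embryonic genome is broadly active, with 17.8 to 41.0 RPKM in NT and 19.4 to 41.6 RPKM in in vivo 1-cell embryos, and so was Trp53inp1 (15.5 to 23.8 and 9.51 to 30.9 RPKM), whereas Phlda3 and Bbc3 had 0 reads in all 9 libraries of that stage. In vivo 8-cell and morula embryos varied widely in Phlda3, each with an SD of 2.21 on the log2(RPKM + 1) scale, against 0.37 to 0.98 in the NT groups of the same stages. No test of this difference in spread was made.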
